A study of Mus musculus with 8 samples.

Results

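Fibroblast growth factors (FGFs) are secreted signals that bind receptor tyrosine kinases at the cell surface, with heparan sulphate as a co-factor, and pass the signal on through docking proteins, Ras and the MAP kinases. Cells that receive the signal switch on the Etv4 and Etv5 transcription factors and the Sprouty proteins, and the Sprouty proteins damp the same route, so these genes are widely used as readouts of FGF receptor activity. In the cortex, Fgfr3 is known as a receptor of astrocytes and their progenitors, and Fgf1 and Fgf2 are the ligands best known from adult brain tissue. The 10 genes described here are the receptors Fgfr1, Fgfr2 and Fgfr3, the ligands Fgf1 and Fgf2, the Sprouty inhibitors Spry1, Spry2 and Spry4, and the targets Etv4 and Etv5. They were picked by gene symbol from the 24047 rows of the count table, all 10 were found, and 9 had enough counts to be tested among 10954 genes.

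The libraries were made from tdTomato-positive cells sorted from mouse somatosensory cortex between postnatal days 23 and 25. Every animal carried Glast-CreERT2, a tamoxifen-dependent Cre driven by the promoter of the glutamate transporter Glast, and the Cre-dependent tdTomato reporter Ai14, and received tamoxifen on postnatal days 12 to 14. The control group (WT, 4 libraries) had no floxed allele, and the mutant group (Ptch1cKO, 4 libraries) was Ptch1fl/fl, so that Cre can delete the receptor that holds Hedgehog signalling off. Only cells in which Cre acted, and their descendants, carry the label. Since the labels name no animal for any library, the tests speak only for the spread among these samples, part of which may be technical.

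Total counts were 4061274 to 7206462 per library. Ptch1, the targeted gene, had 285, 227, 491 and 425 CPM (read counts scaled to library size) across WT replicates 1 to 4, against 219, 249, 168 and 258 CPM across Ptch1cKO replicates 1 to 4, a log2 fold change of -0.67 (SE 0.22) that did not pass over all genes (adjusted p = 0.349 by the quasi-likelihood test of edgeR, Benjamini-Hochberg method, as for every edgeR p given). The count covers the whole gene, so it does not show how completely the floxed part was removed. The summed level of 12 astrocyte markers was 22060 to 32890 CPM in WT and 17620 to 36010 CPM in Ptch1cKO. Markers of other cells were also present, at 13660 to 26500 CPM over all 8 libraries for 7 oligodendrocyte genes, 3952 to 5476 CPM for 9 neuronal genes and 406 to 1141 CPM for 9 microglial genes. Genes of endothelial cells were near 0, at 2.69 to 15.2 CPM for 5 genes. Log2 fold changes were positive for 10 of 12 tested astrocyte markers (median 0.139), 9 of 9 microglial (0.44), 5 of 6 oligodendrocyte (0.268), 5 of 5 oligodendrocyte precursor (0.328) and 4 of 9 neuronal markers (-0.037). They were positive for 2 of 7 progenitor (median -1.02), 0 of 2 pericyte (-0.739) and 1 of 2 endothelial markers (-0.329). No marker passed over all genes, and 3 of 12 astrocyte and 3 of 6 oligodendrocyte markers had an unadjusted p under 0.05 by edgeR, all higher. The part of these markers in the results below was not tested. None of these markers was without a count in every library. WT replicates 2 and 3 had 1148 and 612 counts of Xist, which is expressed from the inactive X chromosome of females, and the other 6 libraries, all 4 Ptch1cKO among them, had at most 4. Sex and genotype are therefore partly confounded.

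None of the 9 tested genes passed the test between the genotypes over all genes, and for none of them did the groups separate completely. Over all genes tested, 0.1% passed (11 of 10954 by edgeR, at an adjusted p under 0.05), 9.34% had an unadjusted p under 0.05, and 5.02% had groups that did not overlap. Of the 9 genes, 0 had an unadjusted p under 0.05 by edgeR, and 0 passed by DESeq2, which called 0.609% of the genes it tested. Log2 fold changes were positive for 5 and negative for 4, with a median of 0.074, against -0.0019 over all genes. That median was -0.034 without WT replicate 2 and -0.033 without Ptch1cKO replicate 2, each with 4 positive and 5 negative, so it has no settled sign. Their median size regardless of sign was 0.30, against 0.20 over all genes. The 95% intervals, which are not adjusted for the number of genes, all held a fold of 1, and 6 of the 9 lay wholly within a change of 2-fold either way.

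**Figure D1:**
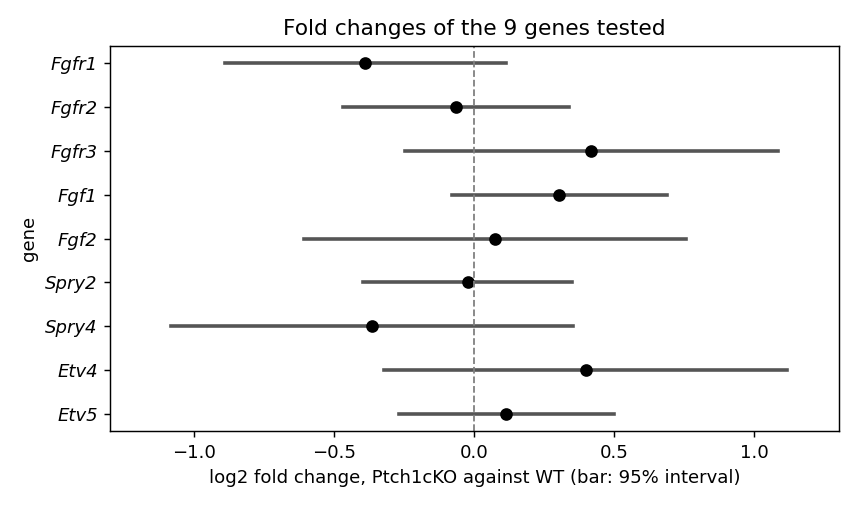
Log2 fold change of each of the 9 tested genes, Ptch1cKO against WT (points), with its 95% interval (bars), from the edgeR fit over all 10954 genes. Every bar crosses 0, and the narrowest bars belong to Spry2, Fgfr2, Fgf1 and Etv5.

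Levels can be compared between genes only per length, so the authors' TPM (length-scaled transcript levels) were used for that. Spry2 was the most abundant, at a mean of 138 TPM over the 8 libraries, above 95.5% of the 23585 rows of the TPM table. Fgf1 followed at 96.4 TPM, Etv5 at 77.0 TPM, Fgfr2 at 59.4 TPM, Fgfr1 at 45.9 TPM and Fgfr3 at 43.0 TPM. Lower still were Fgf2 at 20.9 TPM, Etv4 at 7.95 TPM, Spry4 at 2.62 TPM and Spry1 at 0.552 TPM. The TPM of Fgf2 is high for its read counts, given below, so its place in this order is uncertain. Spry2 exceeded Fgf1 in 8 of 8 libraries, Fgf1 exceeded Etv5 in 7 and Etv5 exceeded Fgfr2 in 6. Fgfr1 exceeded Fgfr3 in 4 of 8, so those neighbours did not differ in order beyond the spread. Among neighbours in this order, Etv4 and Spry4 were the pair whose ranges did not overlap. The libraries were enriched by exome capture, so differences between genes also depend on how well each was captured.

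**Figure D2:**
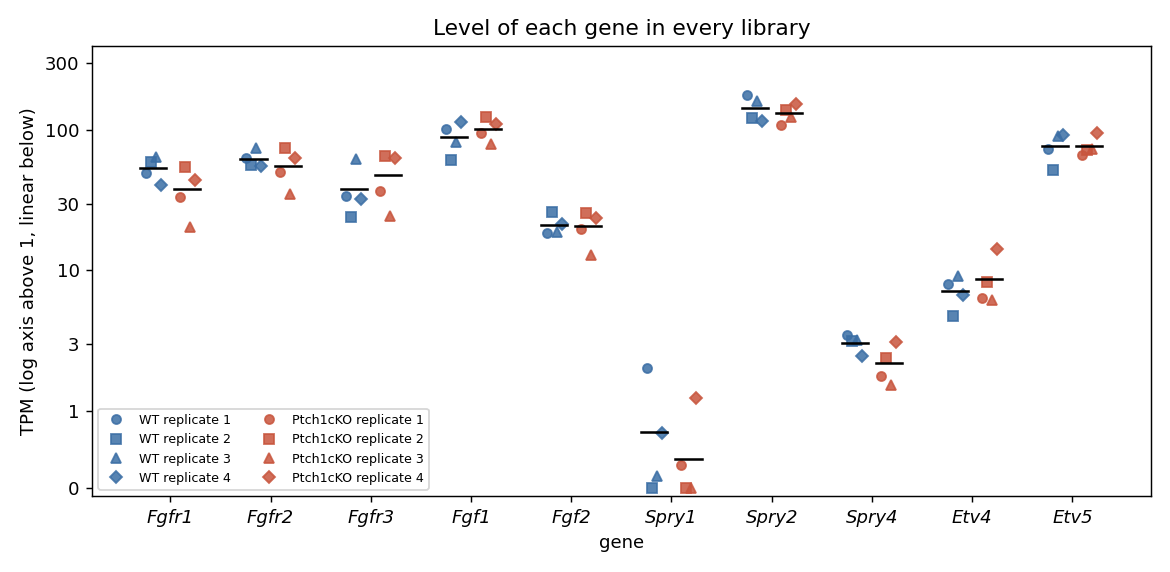
TPM of the 10 genes in each of the 4 WT (blue) and 4 Ptch1cKO (red) libraries, with the group mean as a black line, on an axis that is logarithmic above 1 and linear below. The colours overlap for every gene, and Spry1 lies at or near 0 in both groups.

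Fgf1, the ligand that binds all FGF receptors, had 148, 86.7, 118 and 156 CPM across WT replicates 1 to 4, against 144, 187, 130.1 and 166 CPM across Ptch1cKO replicates 1 to 4. The lowest library was WT replicate 2, and the groups overlapped. The means were 127 ± 31.5 CPM for WT and 157 ± 24.8 CPM for Ptch1cKO (SD, n = 4), and the log2 fold change was 0.30 (SE 0.18, 95% interval -0.08 to 0.69). This was the smallest p among the 9 genes (edgeR quasi-likelihood, unadjusted 0.114, adjusted p = 0.643). The lower WT values were those of the libraries with Xist counts, and among the 6 libraries with under 10 Xist counts the log2 fold change was 0.044. Fgf2, a ligand that lacks a classical secretion signal, had 4.33 to 5.97 CPM in WT and 3.44 to 6.26 CPM in Ptch1cKO, from 14 to 38 counts per library. Its log2 fold change was 0.07 (SE 0.32). In TPM, Fgf1 exceeded Fgf2 by 2.36-fold to 6.13-fold in the 8 libraries. Their CPM lay much further apart, at 86.7 to 187 for Fgf1 and 3.44 to 6.26 for Fgf2. Annotated exon lengths, 5463 bases for Fgf1 and 6782 for Fgf2, would not narrow that gap. The TPM of Fgf2 is therefore out of line with its counts, and the TPM ratio is not a firm measure of relative level. The cause was not tested. An exon of Fgf2 (chromosome 3, 37348346 to 37410108, plus strand of mm10) overlaps the opposite-strand gene Nudt6, which had 8 to 20 counts. The strand setting of the counting is not stated, so reads of this pair cannot be told apart.

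Fgfr1, a receptor used by neurons and glia alike, had 93.2, 108, 119 and 72.3 CPM across WT replicates 1 to 4, against 65.3, 105, 43.3 and 85.3 CPM across Ptch1cKO replicates 1 to 4. Ptch1cKO replicate 3 was the lowest library and WT replicate 3 the highest, with overlap between. The log2 fold change was -0.39 (SE 0.23, 95% interval -0.89 to 0.11; adjusted p = 0.646, edgeR). It was -0.14 among the 6 libraries with under 10 Xist counts. Fgfr2, known for its part in oligodendrocytes and astrocytes, had 128, 109.8, 147 and 105 CPM across WT replicates 1 to 4, against 104, 153, 78.5 and 132 CPM across Ptch1cKO replicates 1 to 4. Its extreme libraries, Ptch1cKO replicates 2 and 3, both belonged to the mutant group. The log2 fold change was -0.07 (SE 0.19, 95% interval -0.47 to 0.34), which is 0.722-fold to 1.26-fold.

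Fgfr3, the receptor best known from astrocytes, had 56.0, 38.3, 100.5 and 49.6 CPM across WT replicates 1 to 4, against 62.9, 111, 45.5 and 107 CPM across Ptch1cKO replicates 1 to 4. WT replicate 3 and Ptch1cKO replicates 2 and 4 stood above 100 CPM and the other 5 libraries below 63 CPM, so both genotypes held high and low libraries. The means were 61.1 ± 27.3 CPM for WT and 81.6 ± 32.5 CPM for Ptch1cKO (SD, n = 4). The log2 fold change was 0.42 (SE 0.31, 95% interval -0.25 to 1.08; adjusted p = 0.737, edgeR). Without WT replicate 3 it was 0.77 and without Ptch1cKO replicate 2 it was 0.24, neither passing. Among the 6 libraries with under 10 Xist counts, which leave out WT replicates 2 and 3, it was 0.63 (SE 0.32; adjusted p = 0.657, edgeR). Fgfr1 lies on chromosome 8 (25513654 to 25575718, plus strand) and Fgfr3 on chromosome 5 (33721674 to 33737068, plus strand) in the GENCODE M21 annotation of this build. Exons of Fgfr1 and Fgfr3 overlap the opposite-strand annotations Gm16159 and G630022F23Rik. Exons annotated for Fgfr2 overlap Ctbp2 on the same strand, which had 55 to 119 counts, so strand cannot separate reads of that overlap.

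The mix of receptors was compared next, since a share within a library does not depend on how the library was scaled. The share of Fgfr3 was the planned comparison, and those of Fgfr1 and Fgfr2 were given in the same way. Of the summed TPM of Fgfr1, Fgfr2 and Fgfr3, Fgfr1 made up 33.6, 42.3, 31.9 and 31.8% across WT replicates 1 to 4, against 27.9, 27.9, 25.6 and 25.7% across Ptch1cKO replicates 1 to 4. All 4 WT libraries lay above all 4 Ptch1cKO libraries. The means were 34.9 ± 5.02% and 26.8 ± 1.27% (SD, n = 4), a difference of -8.13 percentage points. The exact two-sided permutation p was 0.0286, the smallest that 70 assignments can give, and it did not pass when adjusted over the 3 receptors (Benjamini-Hochberg adjusted p = 0.0857 over 3 exact tests). The difference was -5.91 points among the 6 libraries with under 10 Xist counts, where the smallest exact p possible is 0.0667. Since these libraries are part of the same set, no overlap could arise among them.

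Fgfr3 made up 23.1, 17.2, 31.0 and 24.97% across WT replicates 1 to 4, against 30.7, 33.8, 30.8 and 37.0% across Ptch1cKO replicates 1 to 4. WT replicate 3 alone reached into the mutant range. The means were 24.1 ± 5.67% and 33.1 ± 2.96% (SD, n = 4), 8.99 points higher in Ptch1cKO (exact two-sided permutation p = 0.0857, Benjamini-Hochberg adjusted p = 0.129 over the 3 receptors). Among the 6 libraries with under 10 Xist counts, which leave out WT replicates 2 and 3, the difference was 9.02 points. Its exact permutation p was 0.0667, the smallest possible there. Leaving out WT replicate 3 alone separates the groups by construction, and the difference was then 11.3 points. The shares of Fgfr3 and Fgfr1 both passed there (exact permutation test, Benjamini-Hochberg adjusted p = 0.0429 each). The exact permutation p of Fgfr1 was 0.0286 with or without that library. Its adjusted p changed only because the p of Fgfr3 fell. The 3 shares are parts of 1 sum, so their tests are not independent. Fgfr2 made up 41.0 ± 2.94% in WT and 40.2 ± 2.89% in Ptch1cKO (SD, n = 4). In bulk samples, fewer cells of a type and less RNA per cell cannot be told apart, and the part of other cell types in these shares was not tested.

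**Figure D3:**
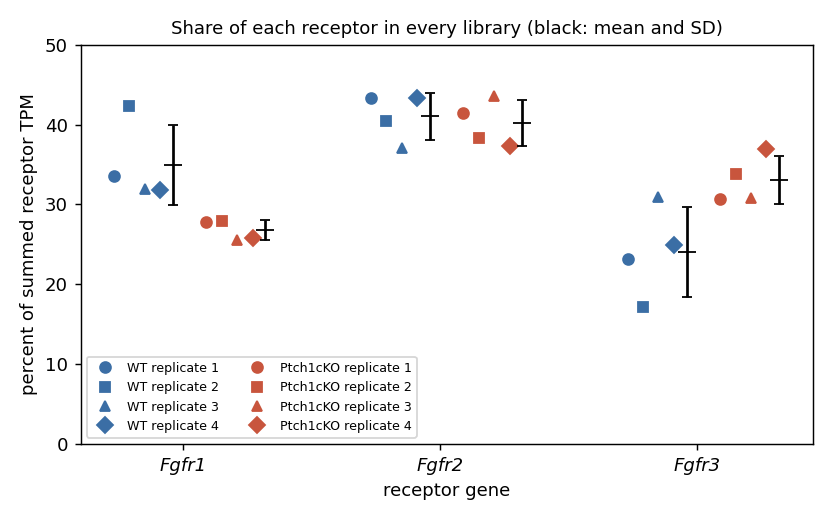
Percent of the summed TPM of Fgfr1, Fgfr2 and Fgfr3 that each receptor made up, in each of 4 WT (blue) and 4 Ptch1cKO (red) libraries, with mean and SD in black. Fgfr1 lies at 31.8 to 42.3% in WT and 25.6 to 27.9% in Ptch1cKO, whereas Fgfr3 lies at 17.2 to 31.0% and 30.7 to 37.0%.

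The spread of Fgfr3 between libraries was shared with other genes. Of the 10953 other genes tested, those whose log2 CPM went most closely with it over the 8 libraries were Acsl6, an enzyme that activates long-chain fatty acids (r = 0.98), the sphingosine-1-phosphate receptor S1pr1 (r = 0.98) and Gja1, the main gap junction protein of astrocytes and also on the astrocyte marker list (r = 0.97). These values are given as a description, since the libraries share depth and cell composition with each gene and the genes were picked for their r. Gja1 had 145, 98.7, 241 and 157 CPM across WT replicates 1 to 4, against 193, 306, 131 and 279 CPM across Ptch1cKO replicates 1 to 4. Its high libraries were the same WT replicate 3 and Ptch1cKO replicates 2 and 4 as those of Fgfr3. The sum of the 12 astrocyte markers went with Fgfr3 in part. It was highest in Ptch1cKO replicate 2 (36010 CPM) and WT replicate 3 (32890 CPM). It was lowest in Ptch1cKO replicate 3 (17620 CPM) and WT replicate 2 (22060 CPM), which were also lowest in Fgfr3. Against that order, the sum was 27000 CPM in Ptch1cKO replicate 4 and 31580 CPM in WT replicate 4, where Fgfr3 had 49.6 CPM. The summed microglial markers were 406 CPM in WT replicate 3 and 454 CPM in Ptch1cKO replicate 2, the lowest of the 8 libraries, and 717 CPM in Ptch1cKO replicate 4. Whether cell composition accounts for the level of Fgfr3 was not tested.

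**Figure D4:**
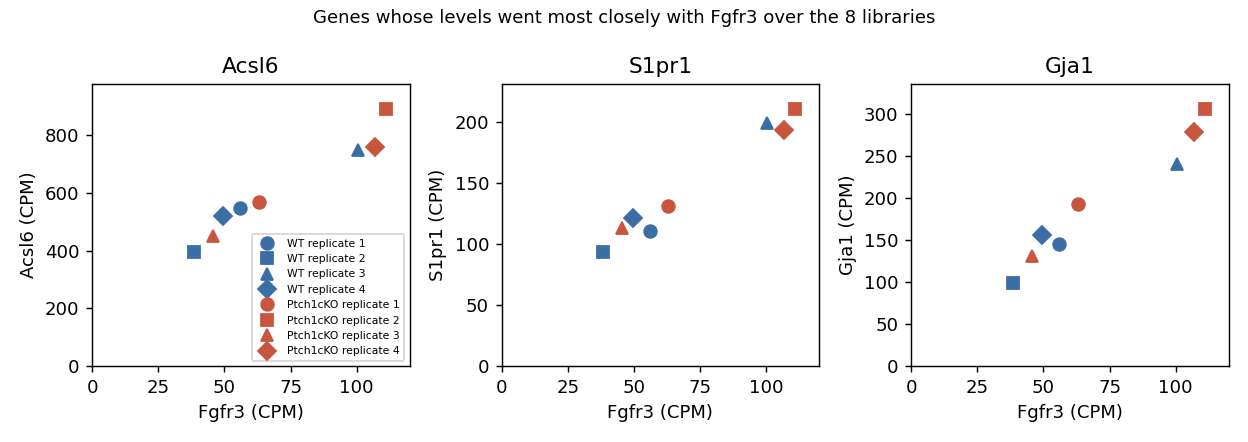
CPM of Acsl6, S1pr1 and Gja1 (vertical axes) against CPM of Fgfr3 (horizontal axes), 1 point per library, 4 WT (blue) and 4 Ptch1cKO (red). WT replicate 3 and Ptch1cKO replicates 2 and 4 lie together at the upper right of each panel, and both genotypes lie on the same line of points.

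Spry2, a Sprouty protein that blocks the signal between receptor and MAP kinase, had 137, 89.7, 120.2 and 84.0 CPM across WT replicates 1 to 4, against 86.2, 109, 107 and 122 CPM across Ptch1cKO replicates 1 to 4. The WT libraries held both the lowest and the highest value. The means were 108 ± 25.1 and 106 ± 14.7 CPM (SD, n = 4), and the log2 fold change of -0.02 (SE 0.18) had a 95% interval of -0.40 to 0.35, or 0.760-fold to 1.27-fold. Spry2 supplied 97.0 to 98.8% of the summed TPM of the listed Sprouty genes in every library. Spry4 had 5.89, 5.19, 5.31 and 3.91 CPM across WT replicates 1 to 4, against 3.12, 4.17, 2.95 and 5.45 CPM across Ptch1cKO replicates 1 to 4. Ptch1cKO replicates 2 and 4 lay within the WT range, and the log2 fold change was -0.37 (SE 0.34; adjusted p = 0.795, edgeR), from 12 to 38 counts per library.

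Spry1, a Sprouty gene with the same inhibitory role, fell below the count filter. It had 11, 0, 1 and 3 counts across WT replicates 1 to 4, against 2, 0, 0 and 7 counts across Ptch1cKO replicates 1 to 4. Both groups held libraries at 0, where up to 3 counts are allowed by counting error alone. Pooled, the ratio of Ptch1cKO to WT was 0.637 (95% exact Poisson interval 0.246 to 1.55, for counting error alone). The libraries did not differ beyond their spread (exact two-sided permutation p = 0.629). Whether a difference of this size could be detected with so few counts was not tested.

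Etv5, an ETS transcription factor switched on by FGF signalling, had 104, 72.0, 126 and 124 CPM across WT replicates 1 to 4, against 97.6, 106, 117 and 139 CPM across Ptch1cKO replicates 1 to 4. WT replicate 2 was the lowest and Ptch1cKO replicate 4 the highest. The log2 fold change was 0.11 (SE 0.18, 95% interval -0.27 to 0.50). Etv4, a close relative, had 6.90, 3.93, 7.69 and 5.35 CPM across WT replicates 1 to 4, against 5.68, 7.30, 5.90 and 12.6 CPM across Ptch1cKO replicates 1 to 4. Its positive log2 fold change of 0.40 (SE 0.34; adjusted p = 0.779, edgeR) rested on Ptch1cKO replicate 4, without which it was 0.076. In TPM, Etv5 exceeded Etv4 by 6.69-fold to 13.9-fold in the 8 libraries. The genes most like Etv5 over the 8 libraries were Trnt1, which completes the ends of transfer RNAs (r = 0.95), the mitochondrial RNA helicase gene Supv3l1 (r = 0.94) and Cutc (r = 0.94). They were picked for their r among 10953 genes, so this is a description, and Cutc had only 0.471 CPM in WT replicate 2.

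The start regions of Spry2 and Etv5 are shown because these were the feedback inhibitor and the target with the highest levels and the narrowest intervals. They come from the RefSeq promoter table of GRCm38.p6, which held 8 windows for 6 of the 10 genes, each 300 bases from 250 before to 50 after an annotated start, printed on the strand of the gene. Etv4 and Etv5 bind DNA with a GGAA core, so GGAAGTG and CCGGAAG were searched, together with GGGTGGTC, core letters of the Gli factors that carry the Hedgehog signal, on both strands. The first pair share the letters GGAAG and can overlap. GGAAGTG was in 1 of the 8 windows (11.0% of all 32851 windows), and CCGGAAG (8.86% of all windows) and GGGTGGTC (0.807% of all windows) were in 0. The window with a match is the downstream of a pair annotated for Etv5, which held 2 copies, shown in capitals. The upstream window of the pair, without a match, is not printed. A match is a description of the letters and not a site. The windows lie at chr14:105896770-105897069 for Spry2 and chr16:22438319-22438618 for Etv5, both on the minus strand.
Spry2: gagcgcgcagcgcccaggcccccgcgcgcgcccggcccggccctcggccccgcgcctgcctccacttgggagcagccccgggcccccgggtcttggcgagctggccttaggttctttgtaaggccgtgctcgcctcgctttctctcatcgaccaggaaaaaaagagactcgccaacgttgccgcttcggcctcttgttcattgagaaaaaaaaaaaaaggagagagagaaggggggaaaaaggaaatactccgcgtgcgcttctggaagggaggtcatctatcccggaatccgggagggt
Etv5: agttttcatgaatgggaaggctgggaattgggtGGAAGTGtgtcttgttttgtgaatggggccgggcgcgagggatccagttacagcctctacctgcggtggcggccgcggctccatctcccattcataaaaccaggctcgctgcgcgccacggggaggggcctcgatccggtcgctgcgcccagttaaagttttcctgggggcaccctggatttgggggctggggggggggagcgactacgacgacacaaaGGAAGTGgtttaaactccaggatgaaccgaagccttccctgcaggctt

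How the 9 genes varied together was examined over 36 pairs. Of these, 30 had a positive and 6 a negative Pearson r of log2 CPM over the 8 libraries, and none passed when adjusted over the 36 (Benjamini-Hochberg). The share of positive r over all gene pairs was not computed. All genes share the depth and cell composition of a library, so the count of signs is a description. Fgfr3 and Etv4 had r = 0.82 (exact permutation p = 0.00469, adjusted p = 0.096) and Spearman's rho = 0.81 (exact permutation p = 0.0218, adjusted p = 0.251), and r was 0.82 without the 2 libraries farthest from the median of Fgfr3. Fgfr1 and Fgfr2 had r = 0.88 (exact permutation p = 0.00533, adjusted p = 0.096) and rho = 0.79 (exact permutation p = 0.0279, adjusted p = 0.251), with r = 0.59 without Ptch1cKO replicates 1 and 3, the 2 libraries farthest from the median of Fgfr1. After the group means were removed, r was 0.79 for Fgfr3 with Etv4 and 0.93 for Fgfr1 with Fgfr2. Prefixes in the column names hold libraries of a single genotype, and at most 2 each, so no value within a prefix could be given. The labels do not explain these prefixes, and any effect of what they mark cannot be fully told apart from genotype.

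The rest of the FGF route was described from lists written by role, of which 47 of 67 genes were tested. None passed over all genes (edgeR, Benjamini-Hochberg), against 0.1% of all genes tested, and DESeq2 called 1, against 0.609% of the genes it tested. With an unadjusted p under 0.05 by edgeR, 2 were higher and 1 lower, or 3 of 47 beside 9.34% of all genes. Groups did not overlap for 3 of the 47, beside 5.02% of all genes. In the list of adaptors and the Ras-MAPK relay, which carries the signal inward, 0 of 19 had an unadjusted p under 0.05 by edgeR and the median size of the log2 fold change was 0.117, against 0.20 over all genes. The genes of this list also varied less between libraries, with a median biological coefficient of variation of 0.166, against 0.254 over all genes (edgeR). The smallest p there were those of the kinase gene Araf, at 0.29 (SE 0.15), and the docking protein gene Gab1, at 0.27 (SE 0.18). Of the 10 other feedback and target genes, 8 were tested. All 8 had positive fold changes, with a median of 0.155 and 0 passing. Dusp5, on the same list, was below the count filter and had fewer counts in the mutant libraries, given under other observations. Without Ptch1cKO replicate 2 there were 5 of 8 positive with a median of 0.080, and without WT replicate 1 there were 6 of 8. With the authors' TPM there were 4 of 8, with a median of 0.026 beside -0.098 over all genes in that fit. They included Etv1 at 0.25 (SE 0.15) and the receptor inhibitor Il17rd at 0.62 (SE 0.49).

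Genes that build and edit heparan sulphate, the co-factor of FGF binding, and the syndecan core proteins were the list with the widest spread, with a median size of 0.413 over 14 tested genes, 7 positive and 7 negative. Sdc3, a neural syndecan that carries heparan sulphate chains, had 13.3, 15.1, 12.999 and 20.2 CPM across WT replicates 1 to 4, against 29.1, 25.02, 26.6 and 25.8 CPM across Ptch1cKO replicates 1 to 4. All 4 mutant libraries were above the 4 WT libraries. The log2 fold change was 0.80 (SE 0.21) and did not pass by edgeR (Benjamini-Hochberg adjusted p = 0.257), whereas DESeq2 called it (Benjamini-Hochberg adjusted p = 0.0368). Glce, which turns glucuronic into iduronic acid in the chain, had 48.6, 64.0, 67.2 and 59.9 CPM across WT replicates 1 to 4, against 54.3, 34.6, 31.2 and 38.7 CPM across Ptch1cKO replicates 1 to 4, so that Ptch1cKO replicate 1 lay above WT replicate 1. Its log2 fold change was -0.59 (SE 0.19; adjusted p = 0.356, edgeR). Hs6st1, a sulphotransferase of the chain that was named after its values were seen, had 3.71 to 14.3 CPM in WT and 14.6 to 19.2 CPM in Ptch1cKO, and its groups overlapped in TPM. Its log2 fold change was 0.85 (SE 0.34; adjusted p = 0.45, edgeR).

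**Figure D5:**
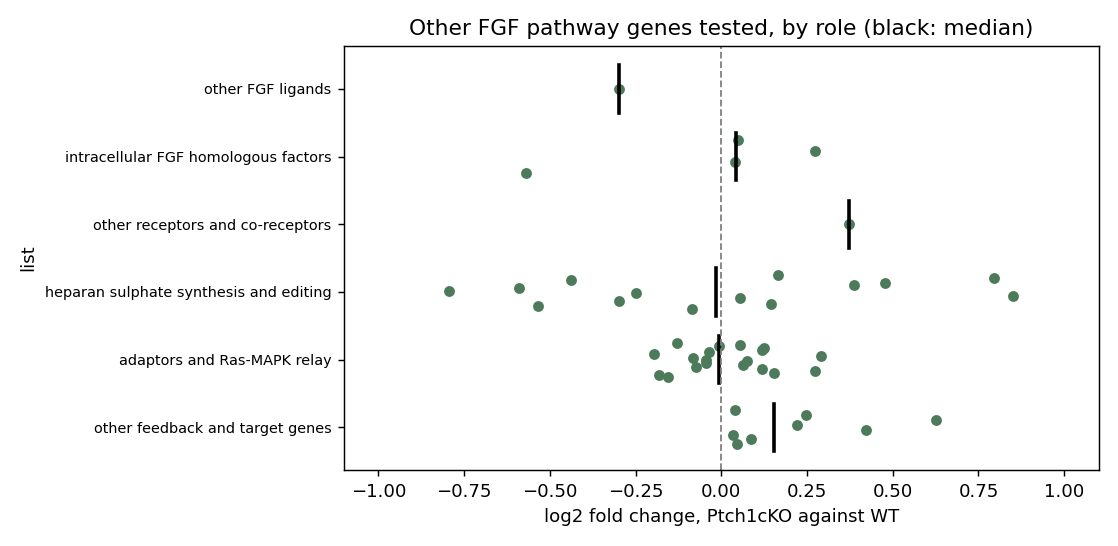
Log2 fold change of the 47 other FGF pathway genes tested, Ptch1cKO against WT, 1 point per gene, in rows by role, with the median of each list in black. The relay genes cluster near 0, and the heparan sulphate genes spread from Hs3st1 and Glce on the left to Sdc3 and Hs6st1 on the right.

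Most other ligands, and the receptor Fgfr4, had few counts in these cells. Of 16 other ligand genes, 10 had any count and Fgf9 alone was tested, with means of 6.35 CPM (WT) and 5.08 CPM (Ptch1cKO) and a log2 fold change of -0.30 (SE 0.34), or -0.050 without WT replicate 4. Fgfr4 had 4 pooled counts in either group. Fgfrl1, a receptor without a kinase, had a log2 fold change of 0.37 (SE 0.24). The intracellular FGF homologous factors, which bind sodium channels and not FGF receptors, were all tested, and 3 had positive and 1 a negative fold change. Fgf13 and Fgf11 had log2 fold changes of 0.27 (SE 0.15) and -0.57 (SE 0.34), and neither passed.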

How the data were processed

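RNA from 4 WT and 4 Ptch1cKO samples was made into cDNA with a low-input system and enriched by exome capture, per the labels' protocols. Reads were demultiplexed with bcl2fastq 2.18, and STAR 2.5 and the build mm10 were used, per the submitters' processing notes. The sources used here do not give how reads were counted, or with which annotation and strand. The deposited counts are raw whole reads per gene symbol (24047 rows). TPM (23585 rows) were computed by the authors and deposited in a second table.

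The test was run with edgeR 4.0.16 under R 4.3.3, on the 10954 genes (of 20578 with any count) that filterByExpr passed at a minimum count of 10, after TMM scaling. Groups came from the sample titles. The quasi-likelihood F test (robust, group as the only term) was adjusted over all genes by Benjamini-Hochberg and called at 0.05. An SE is the log2 fold change divided by the square root of F. CPM use TMM-scaled library sizes. Receptor shares were compared by exact permutation over 70 assignments (Python 3.11.15, scipy 1.17.1). Alternatives used DESeq2 1.42.0, limma 3.58.1 on log2(TPM + 1) and log2(TPM + 0.1), other filters and scaling, fewer libraries, the Xist pattern (limit 10 counts) and a replicate block. Depth of 4061274 to 7206462 counts limits genes with few reads. The 95% intervals of fold changes come from the edgeR fit and include the spread between libraries, whereas the interval of the pooled Spry1 ratio covers counting error only. On simulated data for this comparison (10720 genes after the filter, 200 changed), the test recovered 14% of genes changed 1.5-fold, 38% at 2-fold, 76% at 3-fold and 84% at 4-fold, with 8 of 114 calls false.

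The 10 genes and all lists were chosen with earlier results of these data known. Named genes were the 10 members, Ptch1, from each list any called gene or else the 2 with the smallest p, and the 3 genes most correlated with Fgfr3 and with Etv5. No protein sequences were used here.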

Additional observations from a re-analysis of the deposited data

Results flagged for a closer look

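Among 50 sets of 4 libraries, 2 held a library set apart from the other 3 of its group by Dixon's criterion at 95%, and chance sets apart about 1 in 20 such groups. Fgf9 had 9.47 CPM in WT replicate 4, against 5.03 to 5.72 CPM in the other WT libraries. Hs6st1 had 19.2 CPM in Ptch1cKO replicate 4, against 14.6 to 14.9 CPM in the other Ptch1cKO libraries.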

How the results depend on the processing

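None of the 9 tested genes was called under any of the 17 alternatives, with adjusted p-values of 0.413 to 0.999. Spry1 was not called in the 2 unfiltered fits that gave it an adjusted p. The fold changes of Fgfr1, Fgfr3, Fgf1, Spry4 and Etv4 kept their sign in all 17. Leaving out single libraries gave -0.59 to -0.21 for Fgfr1, 0.24 to 0.77 for Fgfr3, 0.16 to 0.41 for Fgf1, -0.57 to -0.26 for Spry4 and 0.076 to 0.55 for Etv4. Fgfr2 turned positive among the 6 libraries with under 10 Xist counts (0.0071) and with the Xist pattern as a second term (0.0064), and lay between -0.22 and 0.081 when single libraries were left out. Fgf2 turned negative with log2(TPM + 1), with or without a filter (-0.070), and with log2(TPM + 0.1) (-0.075), and lay between -0.034 and 0.21 when single libraries were left out. The same ranges were -0.13 to 0.11 for Spry2 and -0.034 to 0.21 for Etv5. TPM moved the median of all genes to -0.098 and, with the smaller pseudocount, -0.106. The 11 genes called over the whole table became 79 with DESeq2, 199 without the count filter, 3 among the 6 libraries with under 10 Xist counts, 2 with the Xist pattern as a term, 2 with log2(TPM + 1), 2 with log2(TPM + 0.1), 1 with log2(TPM + 1) and no filter, and 1 to 19 when single libraries were left out. The cause was not tested. Replicate numbers did not pair the samples, since correlations of same-numbered deviations were 0.018, -0.166, -0.1 and -0.0253, and with the replicate block 5 genes and 0 members were called, while the share of Fgfr3 differed by 8.99 points (exact paired permutation p = 0.25) and that of Fgfr1 by -8.13 points (exact paired permutation p = 0.125, the smallest possible). When single libraries were left out, the share difference was -9.18 to -5.65 points for Fgfr1, 6.71 to 11.3 points for Fgfr3 and -2.17 to 0.091 points for Fgfr2. It passed for Fgfr1 (-9.12) and Fgfr3 (11.3) without WT replicate 3. That library alone overlapped the mutant range of the Fgfr3 share, so leaving it out separates those groups by construction. Without the count filter Ptch1 passed (-0.66; edgeR, Benjamini-Hochberg adjusted p = 0.00235).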

Other observations

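Among the ligand genes with too few counts to be tested, and chosen after their values were seen, Fgf16 had 11 and 8 counts in WT replicates 2 and 3, the libraries with Xist counts, and 0 in each of the other 6, where up to 3 counts are allowed by counting error alone. Fgf10, a ligand of Fgfr2, had 0, 11, 3 and 4 counts in WT replicates 1 to 4 and 3, 10, 30 and 8 counts in Ptch1cKO replicates 1 to 4, with most of the mutant counts in replicate 3. Fgf18, a ligand with affinity for Fgfr3, had 11, 1, 23 and 2 counts in WT replicates 1 to 4 and 11, 10, 1 and 4 counts in Ptch1cKO replicates 1 to 4. Dusp5, a MAP kinase phosphatase, had 21 counts over the WT libraries together and 5 over the mutant ones.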
